A study of Mus musculus with 8 samples.

Results

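Plaur, Plau, Thbs1 and F13a1, genes of coagulation and fibrinolysis, were taken by symbol from a table of 10970 genes, and all 4 were found in it. They were followed in single neutrophils taken from the peripheral blood (PB) or the bone marrow (BM) of mice injected with PBS or with lipopolysaccharide (LPS), which the study examined because circulating neutrophils were thought to act on coagulation in endotoxemia. The methods describe male C57BL/6J mice of young adult age, with LPS given intraperitoneally at 0.5 mg/kg, so each group had an injection. The methods place the preparation 4 h after either injection, whereas in the labels PBS stands for 0 h and LPS for 4 h. The 4 groups are therefore PBS-primed PB, LPS-primed PB, PBS-primed BM and LPS-primed BM neutrophils. Neutrophils were enriched with a kit, picked singly by pipette and sequenced by SCRB-seq, in which each transcript molecule carries a unique molecular identifier (UMI) so that amplified copies count once. No source used here says how many mice stand behind a sample.

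Fibrin, the mesh of a clot, is crosslinked by factor XIII, whose catalytic A subunit is encoded by F13a1, and is dissolved by plasmin. Plasmin is cut from plasminogen by urokinase, the product of Plau, which works at the cell surface when it is held by the urokinase receptor uPAR, the product of Plaur. Thbs1 encodes thrombospondin-1, a matrix glycoprotein that platelets store in quantity, that binds CD47 and fibrinogen and that is also made by activated myeloid cells. F13a1 is best known in megakaryocytes, platelets, monocytes and macrophages. Plaur is a surface gene of maturing and activated neutrophils.

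In the mm9 annotation Plaur lies on the forward strand at chr7:25247519-25260892 with 7 exons, Plau on the forward strand at chr14:21655884-21662610 with 11 exons, Thbs1 on the forward strand at chr2:117937612-117952869 with 22 exons and F13a1 on the reverse strand at chr13:36959047-37142113 with 15 exons. The promoter table of RefSeq held 1 promoter of Plaur and 2 of F13a1, and those of Thbs1 and Plau were not analysed here. The 250 bases before the start of Plaur are shown because Plaur is the receptor of the group and differed both with LPS and with the compartment. They come from RefSeq on GRCm38.p6, a later build than that of the counts, at chr7:24462233-24462482 on the forward strand, and are written 5′ to 3′ with the match to the AP-1 motif in capitals.
Plaur promoter: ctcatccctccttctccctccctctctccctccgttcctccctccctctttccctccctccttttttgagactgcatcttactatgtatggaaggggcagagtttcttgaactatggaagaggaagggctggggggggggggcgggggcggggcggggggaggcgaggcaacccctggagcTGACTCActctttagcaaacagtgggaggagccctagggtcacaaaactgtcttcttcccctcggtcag
The motif, TGANTCA searched on both strands, lies 63 to 69 bases before the start, and 6.75% of the 32851 promoters in the table hold it. The promoter also has 3 matches to the SP1 motif GGGCGG, found in 32.7% of promoters, and 2 matches to the PU.1 core GAGGAA, found in 23.3%. It has 0 matches to the CRE TGACGTCA, which 1.55% of promoters hold, and 0 to the NF-kB motif, which 0.98% hold. The 2 promoters of F13a1 have 0 AP-1 matches. These are matches of letters and not measured binding.

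The table held UMI counts of 1421 cells on 17 plates. The names of 711 cells, all of batch 7, matched 1 of the 8 labelled samples, 2 in each group and each a plate of its own. The other 710 cells, all of batch 6, lay on 9 plates and carried a group but no sample. Levels are given in CPM, a gene's UMIs scaled to the total of its plate. A plate held 44 to 95 cells and 3240559 to 12020616 UMIs, with a median of 32295 to 117374 UMIs per cell. Plates reused the same 95 barcode numbers, and 0 cells had the same counts as another. The 12 neutrophil markers, among them S100a8, S100a9 and Csf3r, were above 0 on every plate and summed to 123079 to 184025 CPM in PBS-primed PB, 289689 to 391323 in LPS-primed PB and 351452 to 441034 in BM neutrophils, so PBS-primed PB plates carried the label's markers at the lowest level. Platelet markers, 10 of 12 measured, summed to 364 to 548 CPM in batch 7 and 1272 to 3247 CPM in batch 6 of PBS-primed PB, to 1.83 to 131 CPM in LPS-primed PB and to 0 to 25.4 CPM in BM. Hepatocyte markers, 6 of 6 measured, summed to 1525 to 2338 CPM in PBS-primed and 873 to 903 CPM in LPS-primed PB of batch 7, against 0.107 to 1.91 CPM in PB of batch 6. Monocyte and macrophage markers, 7 of 10 measured, summed to 235 to 823 CPM in PBS-primed PB, 854 to 1468 CPM in LPS-primed PB and 639 to 1145 CPM in BM. The part of these markers in the results was not tested, except where cells with markers of another type were left out. Those types were monocyte and macrophage, platelet, B cell, and T and NK cell. No cell was left out for hepatocyte markers.

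UMIs were summed per sample and compared with edgeR's quasi-likelihood test over 8478 genes, with TMM scaling, Benjamini-Hochberg adjustment at 0.05 and all 4 groups in 1 fit, and all 4 genes passed the filter on low counts. The p-values measure only the spread between these samples, which may be technical. Fits that use batch 6 take each plate as a replicate, though no plate there is tied to a sample or an animal. Their p-values measure only the spread between plates, which may be technical as well. LPS-primed BM had 1 plate in batch 6, so in the fit of batch 6 alone its spread is taken from the other groups. The TMM factors of LPS-primed PB (0.75 and 0.69) were below those of PBS-primed PB (1.35 and 1.37), so a fitted PB change with LPS is larger than the ratio of CPM. Over all genes, the median log2 fold change with LPS in PB was -0.11 under TMM scaling and -1.02 on library size alone.

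Plaur, the urokinase receptor, was lowest in PBS-primed PB neutrophils and highest in PBS-primed BM neutrophils, and rose with LPS in PB. In PB its level was 163 and 128 CPM after PBS, and 256 and 341 CPM after LPS. In BM it was 738 and 527 CPM after PBS, and 372 and 428 CPM after LPS. The 4 groups did not overlap in these 8 samples. Mean levels in PB were 145 ± 24.7 CPM after PBS and 299 ± 60.3 CPM after LPS, against 633 ± 149 and 400.1 ± 39.5 CPM in BM (SD, n = 2 each). In the plates of batch 6, PB had 191 and 289 CPM after PBS, and 368 and 283 CPM after LPS, while BM had 632, 554, 608 and 401 CPM after PBS, and 512 CPM on the plate after LPS. There the PB groups overlapped, since 1 PBS-primed plate lay just above 1 LPS-primed plate, while the PBS-primed PB plates stayed below each BM plate.

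**Figure D1:**
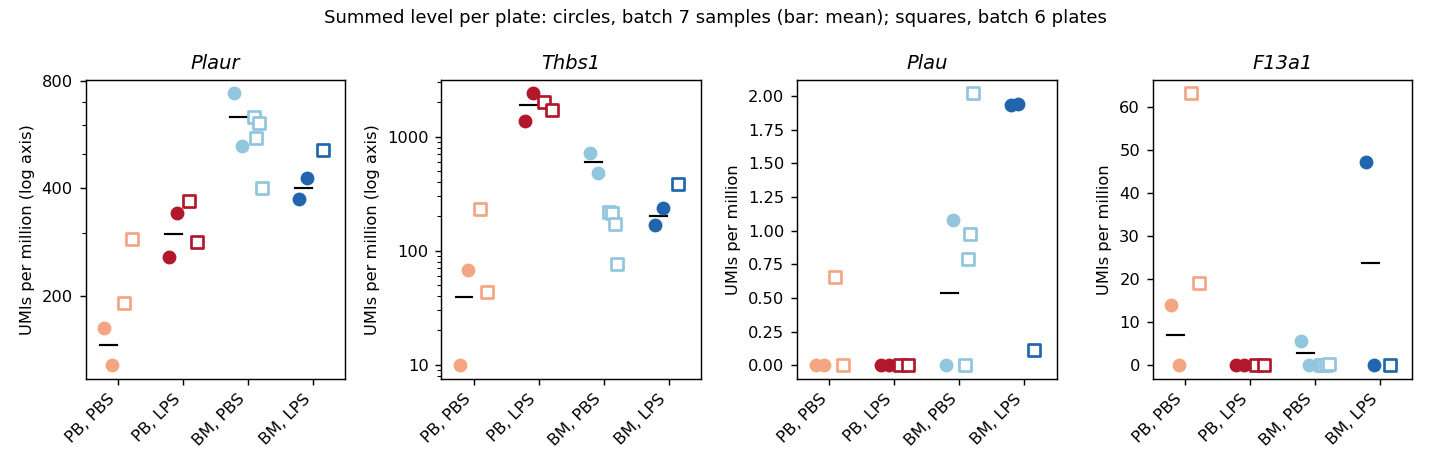
Summed level of Plaur, Thbs1, Plau and F13a1 in CPM for each plate, by group, with log axes for Plaur and Thbs1 and linear axes for Plau and F13a1; circles are the batch 7 samples with a bar at their mean, squares the batch 6 plates. The LPS-primed PB plates stand highest for Thbs1, at 1385 to 2406, and at 0 for Plau and F13a1.

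With LPS in PB, the fitted log2 fold change of Plaur was 1.96 (SE 0.32, adjusted p = 0.00539), where 3.94% of all genes passed, 3.47% as higher and 0.472% as lower. The ratio of mean CPM was 2.06, and 2.28 when the 2 cells with most Plaur UMIs were left out of each sample. On library size alone the log2 fold change was 1.03 and no longer passed (adjusted p = 0.0866), and in batch 6 alone it was 1.52 (SE 0.45, adjusted p = 0.01996) with a CPM ratio of 1.36. Without the PBS-primed PB sample 2 it was 1.75 (adjusted p = 0.0915).

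In BM, Plaur had a log2 fold change of -0.84 with LPS (SE 0.31, adjusted p = 0.608), in a comparison where 0.0708% of all genes passed, 0.0236% as higher and 0.0472% as lower. In batch 6 it was -0.13 (SE 0.49). The LPS effect in PB exceeded that in BM by 2.80 on the log2 scale (SE 0.45, adjusted p = 0.00832), a difference that 1.5% of all genes passed, 1.45% toward PB and 0.0472% toward BM. The difference was 1.70 on library size alone (adjusted p = 0.109), 2.39 without cells with markers of another type (adjusted p = 0.205) and 1.65 in batch 6 alone (SE 0.68, adjusted p = 0.312), and it did not pass without the LPS-primed BM sample 1 (2.68, adjusted p = 0.0707) or the PBS-primed PB sample 2 (2.601, adjusted p = 0.059).

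The resting compartments differed in both batches. Plaur was lower in PBS-primed PB than in PBS-primed BM neutrophils by a log2 fold change of -2.64 (SE 0.33, adjusted p = 0.0016), where 2.61% of all genes passed, 1.18% as higher in PB and 1.43% as lower. It was -1.73 (SE 0.41, adjusted p = 0.0029) in batch 6, and between -2.87 and -1.73 over 19 alternatives, each past the threshold. After LPS the compartments were not separated. The log2 fold change was 0.17 (SE 0.31, adjusted p = 0.85, 95% normal interval -0.44 to 0.77), where 3.73% of all genes passed, 3.27% as higher in PB and 0.46% as lower. Its sign turned on library size alone (-0.42) and in batch 6 (-0.08), and in CPM the LPS-primed PB samples both lay below the BM samples. In the order of levels, PBS-primed BM, LPS-primed BM, LPS-primed PB and PBS-primed PB, only the last pair of neighbours passed the test.

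At the level of cells, Plaur was found widely. At least 1 UMI was seen in 1189 of the 1421 cells (83.7%). The share with a UMI was 53.5% to 72.7% on PBS-primed PB plates, 76.9% to 97.9% on LPS-primed PB, 89.2% to 97.8% on PBS-primed BM and 87.9% to 93.2% on LPS-primed BM plates. With each cell thinned to 5000 UMIs the ranges were 18.6% to 29.8%, 36.0% to 63.2%, 60% to 69.2% and 53.3% to 63.6%, so the lowest group stayed the same at matched depth. For a single plate of about 90 cells these shares have exact 95% intervals such as 48.0% to 69.2% around 58.9% in PBS-primed PB sample 1, which cover counting error only.

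The median cell carried 14.4 to 26.4 CPM of Plaur on PBS-primed PB plates, 53.0 to 214 on LPS-primed PB plates, 214 to 378 on BM plates after PBS and 110 to 268 on BM plates after LPS. The medians of the LPS-primed PB plates lay above those of the PBS-primed PB plates in both batches, also where the summed levels overlapped. In batch 6 the PBS-primed PB medians were 26.4 and 25.4 CPM and the LPS-primed PB medians 214 and 122 CPM. The highest cells showed less of this. The 90th percentile was 445 to 1170 CPM on PBS-primed PB plates and 785 to 915 CPM on LPS-primed PB plates. Cells above 1000 CPM were 4.55% to 11.9% of PBS-primed and 6.59% to 8.42% of LPS-primed PB plates. Summed levels in PBS-primed PB rested more on few cells, with the 2 highest cells holding 27.3% to 40.8% of Plaur UMIs there, 13.4% to 25.3% in LPS-primed PB and 11.1% to 26.05% in BM. The 2 deepest cells of a plate held 5.34% to 17.4% of all its UMIs.

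**Figure D2:**
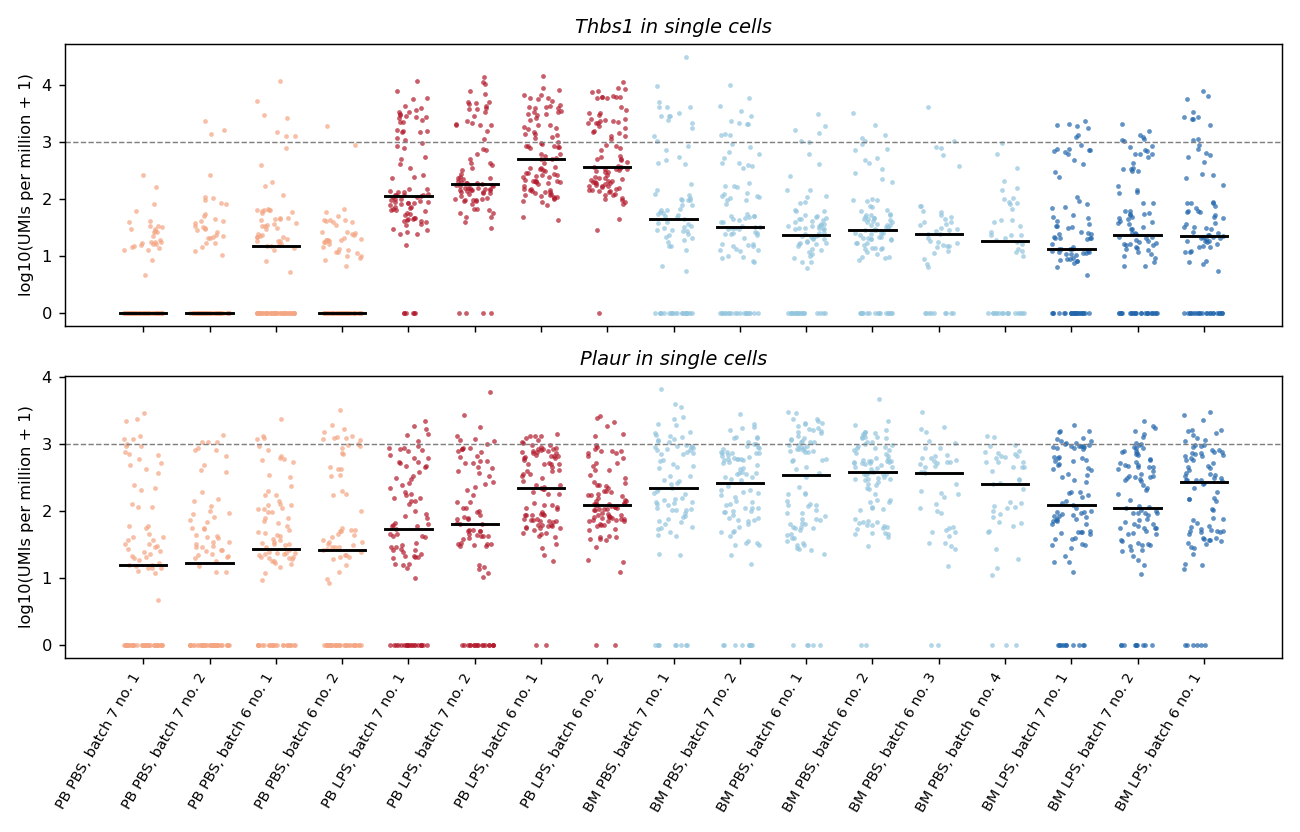
Level of Thbs1 (top) and Plaur (bottom) in each single cell, as log10(CPM + 1), for the 17 plates in the order PBS-primed PB, LPS-primed PB, PBS-primed BM and LPS-primed BM; points are cells, bars the plate medians and the dashed line 1000 CPM. Cells with 0 UMIs lie on the bottom line, which holds few cells on the LPS-primed PB plates for Thbs1 and most of them on the PBS-primed PB plates of batch 7.

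Plau, the activator that uPAR binds, was close to undetected. The table held 64 Plau UMIs in 37 of 1421 cells, 26 of these cells with 1 UMI and the highest with 7, and 9 of 17 plates had 0. The batch 7 samples had 0 UMIs in each of the 4 PB samples, and in BM 0 and 9 after PBS and 15 and 16 after LPS. In batch 6, PB had 3 and 0 UMIs after PBS and 0 and 0 after LPS, and BM had 0, 8, 5 and 7 after PBS and 1 after LPS. Plau was thus seen on 7 of the 9 BM plates and 1 of the 8 PB plates. On a PB plate without one, a limit of 3 counts allows up to 3.16% to 3.57% of cells with a Plau UMI, which does not limit the cells that express the gene.

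The LPS-primed BM samples had 1.93 and 1.95 CPM, in 5 of 91 and 14 of 92 cells, with 73.3% and 25% of the UMIs in the 2 highest cells. Against a floor of 3 UMIs over the LPS-primed PB group, LPS-primed BM held at least 7.94-fold more Plau, and by the same floor PBS-primed BM held at least 1.62-fold more than PBS-primed PB. The second bound rests on the 9 UMIs of sample 2, since sample 1 of PBS-primed BM had 0 like both PBS-primed PB samples, and there is no bound without it. Neither difference passed the test (adjusted p = 0.289 and 0.351). With LPS in BM the adjusted p was 0.994, and the direction was opposite in batch 6, where the LPS-primed plate had 0.11 CPM against 0 to 2.02 CPM on the PBS-primed plates.

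Thbs1, which encodes thrombospondin-1, was highest in LPS-primed PB neutrophils. In PB its level was 9.92 and 68.2 CPM after PBS, and 1385 and 2406 CPM after LPS. In BM it was 723 and 478 CPM after PBS, and 168 and 238 CPM after LPS. The groups did not overlap, and the order was LPS-primed PB, PBS-primed BM, LPS-primed BM and PBS-primed PB. Means in that order were 1895 ± 722, 601 ± 173, 203 ± 49.7 and 39.1 ± 41.2 CPM (SD, n = 2 each). In batch 6, PB had 235 and 43.9 CPM after PBS, and 2013 and 1732 CPM after LPS, while BM had 219, 214, 173 and 77.1 CPM after PBS, and 389 CPM on the plate after LPS. LPS-primed PB again stood above each other plate, whereas PBS-primed PB and PBS-primed BM overlapped there.

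With LPS in PB, Thbs1 rose by a log2 fold change of 6.55 (SE 0.80, adjusted p = 0.000838). The CPM ratio was 48.5, or 89.2 without the 2 highest cells of each sample, and the fit without those cells gave 7.42 (adjusted p = 7.05e-05). In batch 6 alone the log2 fold change was 4.94 (SE 0.52, adjusted p = 2.96e-12) and the CPM ratio 13.4. Over 19 alternatives the log2 fold change lay between 4.94 and 8.46, and with limma-voom, the only alternative where it did not pass, it was 7.26 (adjusted p = 0.098). The LPS-primed compartments differed as well, with Thbs1 higher in PB than in BM. The log2 fold change was 2.83 (SE 0.63) in batch 6, with 1 LPS-primed BM plate, and 3.82 (SE 0.70, adjusted p = 0.0107) in batch 7. Without the LPS-primed BM sample 1 or 2 this value was 3.57 (adjusted p = 0.103) or 4.12 (adjusted p = 0.0525).

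In BM the batches went opposite ways. The log2 fold change with LPS was -1.75 (SE 0.65, adjusted p = 0.608) in the batch 7 samples, where both LPS-primed samples lay below both PBS-primed samples, and 1.16 (SE 0.46, adjusted p = 0.697) in batch 6, where the LPS-primed plate lay above the 4 PBS-primed plates. Neither passed the test. The LPS effect in PB exceeded that in BM by 8.30 (SE 1.01, adjusted p = 0.00151) in batch 7. In batch 6, with 1 LPS-primed BM plate, it did so by 3.78 (SE 0.74). For resting PB against resting BM the log2 fold change was -4.48 (SE 0.73, adjusted p = 0.00797) in batch 7, but -0.95 (SE 0.40, adjusted p = 0.185) in batch 6. Within BM, sums depended on few cells in batch 6, where the 2 highest cells held 44.97% to 57.5% of the Thbs1 UMIs of a PBS-primed plate, against 28.0% and 36.5% in batch 7.

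**Figure D3:**
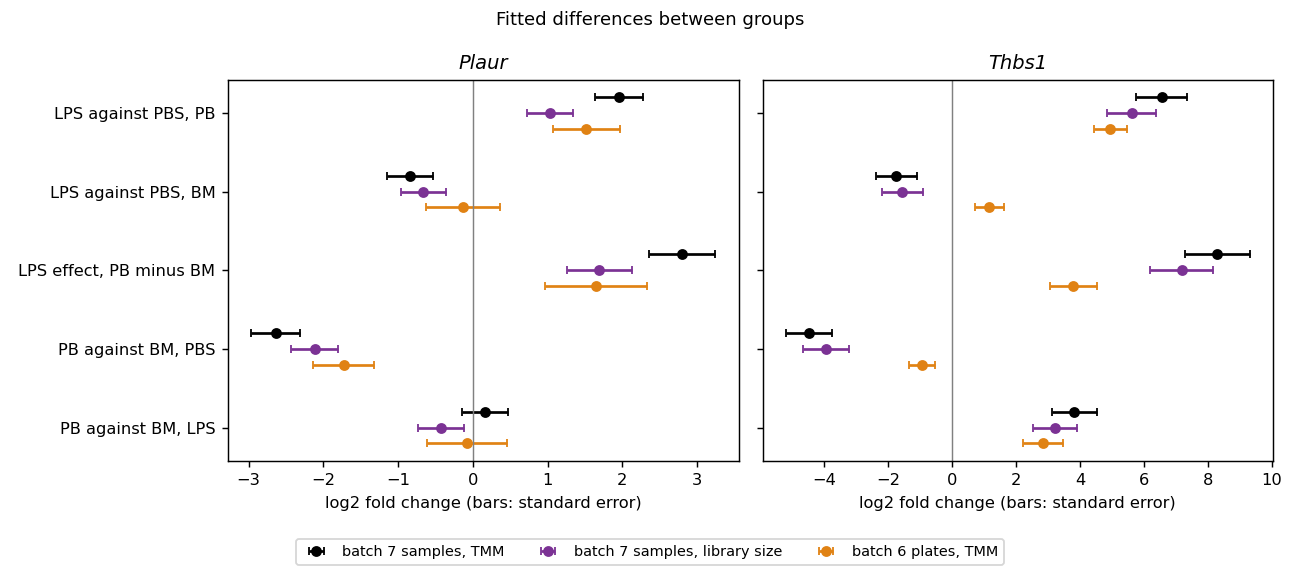
Fitted log2 fold changes of Plaur (left) and Thbs1 (right) for the 5 comparisons, with bars of 1 standard error; black is the batch 7 samples with TMM scaling, purple the same samples on library size alone and orange the batch 6 plates. The LPS effect on Thbs1 in PB is 6.55, 5.61 and 4.94 in these fits, and that in BM is -1.75, -1.57 and 1.16.

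Nearly every LPS-primed PB neutrophil had a Thbs1 UMI. It was seen in 85 of 91, 82 of 86, 95 of 95 and 90 of 91 cells of the 4 plates (93.4%, 95.3%, 100% and 98.9%), whereas PBS-primed PB had 33.3% and 36.0% in batch 7 and 56.8% and 45.2% in batch 6. At 5000 UMIs per cell the LPS-primed PB shares were 59.3%, 61.6%, 82.1% and 84.6%, and the PBS-primed PB shares 3.33%, 10.47%, 17.0% and 5.95%. BM lay between, at 20% to 35.9% for PBS-primed and 28.4% to 31.5% for LPS-primed plates. The thinned shares of the LPS-primed PB samples of batch 7 had exact intervals of 48.5% to 69.5% and 50.5% to 71.9%.

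The distribution over cells was broad. On the LPS-primed PB plates the 10th percentile was 25.7 to 118 CPM, the median 113, 182, 506 and 368 CPM and the 90th percentile 3174 to 6185 CPM, and the highest cell held 3927 UMIs. Cells at or above 1000 CPM numbered 25 of 91, 23 of 86, 35 of 95 and 34 of 91. PBS-primed PB plates had 0, 3, 7 and 1 such cells, PBS-primed BM plates 15, 12, 6, 5, 2 and 0, and LPS-primed BM plates 7, 7 and 11. BM thus held cells with as much Thbs1 as the upper LPS-primed PB cells, while its median cells were at 12.3 to 42.9 CPM. The 2 highest cells held 18.1% to 36.3% of Thbs1 UMIs on LPS-primed PB plates and 32.0% to 75.2% on PBS-primed PB plates.

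Because platelets carry Thbs1, platelet markers were counted in the same cells. Of the 117 LPS-primed PB cells with at least 1000 CPM of Thbs1, 0 had 0.5% or more of their UMIs from platelet markers, and their median was 0%. Of the 11 such cells in PBS-primed PB, 5 had that share, with a median of 0.205% against 0.00713% in the other 337 cells of the group. The cell with most Thbs1 UMIs in PBS-primed PB of batch 6 held 271 of them with 4.44% platelet marker UMIs, including 292 of Pf4 and 394 of Ppbp. Neutrophil markers made up a median of 38.7% of UMIs in the high LPS-primed PB cells and 29.8% in the other 246 cells. Monocyte and macrophage markers were at medians of 0.0986% and 0.0604%. On each of the 4 LPS-primed PB plates 3 of the 7 measured monocyte and macrophage markers were at 0, Ccr2 among them. Csf1r had 190 to 1025 UMIs there, or 15.8 to 174 CPM, against 67.6 to 293 CPM on PBS-primed PB plates. The sum of the list (854 to 1468 CPM) lay above that of PBS-primed PB (235 to 823 CPM), a rise that Csf1r did not share. Fn1 was at 0 to 2.19 CPM there, so the sum lay mostly in Ly6c2, Cx3cr1, Ms4a6c or Adgre1, whose plate levels are not given. In the 2 BM cells with 7 Plau UMIs, Ly6c2 made up 112 of 117 and 115 of 115 UMIs of the list. Neutrophil markers were 47.5% and 35.7% of the UMIs of these cells. The part of these markers was not tested. Leaving out cells with at least 0.5% marker UMIs of another type, an alternative chosen after the data were seen, gave a log2 fold change of 6.47 (adjusted p = 0.00131) for the LPS effect in PB.

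Within LPS-primed PB plates, Thbs1 was set cell by cell beside Plaur and beside Sod2, the mitochondrial superoxide dismutase that the study turned to. Spearman's rho between Thbs1 and Sod2 over the cells of a plate was 0.18 to 0.51, and 0.05 to 0.42 at 5000 UMIs per cell. Between Thbs1 and Plaur it was -0.17 to 0.19, and between Thbs1 and the total UMIs of the cell 0.11 to 0.39. The cells of a plate share a library, and the correlations are descriptions. In the clusters that the authors deposited, Thbs1 had a median of 1125 and 1773 CPM in the cells of cluster 2 and of 84.0 and 132 CPM in those of cluster 1 in the LPS-primed PB samples. Plaur had medians of 52.1 and 91.5 CPM in cluster 2 and 48.6 and 62.4 CPM in cluster 1. On the LPS-primed PB plates of batch 6, cluster 2 held 94 of 95 and 91 of 91 cells, with Thbs1 medians of 514 and 368 CPM. It thus set no high cells apart on those plates. These clusters were drawn from the same cells, so this is no test.

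F13a1, the fibrin-crosslinking enzyme subunit, was held by few cells and was not seen in LPS-primed PB neutrophils. In batch 7, PB had 70 and 0 UMIs after PBS and 0 and 0 after LPS, and BM had 39 and 1 after PBS and 367 and 0 after LPS. In batch 6, PB had 289 and 102 UMIs after PBS and 0 and 0 after LPS, and BM had 0, 0, 0 and 1 after PBS and 0 after LPS. Samples of the same group thus differed by as much as samples of different groups in batch 7. On the LPS-primed PB plates the limit of 3 counts allows up to 3.16% to 3.49% of cells with an F13a1 UMI. Against a floor of 3 UMIs in that group, F13a1 was at least 34.6-fold higher in PBS-primed PB in batch 7 and at least 281-fold higher in batch 6. The bound of batch 7 rests on the 70 UMIs of sample 1, since sample 2 had 0, and there is no bound without it. That of batch 6 rests on few cells, since the 2 highest cells held 86.5% and 96.1% of the UMIs of the 2 plates. The other cells of these plates had 39 and 4 UMIs. Both bounds cover counting error only. None of the 4 contrasts or their difference passed in batch 7 (adjusted p = 0.304 to 0.958). With the plates of both batches and a batch term, the LPS effect in PB passed (adjusted p = 0.0315), as did its difference from that in BM (adjusted p = 0.037).

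Of the 869 F13a1 UMIs, 803 (92.4%) lay in 7 cells with at least 20 UMIs each, and the 2 highest cells of a plate held 86.5% to 100% of its F13a1 UMIs. The highest cell, on the LPS-primed BM plate of sample 1, had 352 UMIs. It also had 370 of Ms4a6c, 172 of Ccr2 and 128 of Fn1, genes of monocytes, and 165 of Top2a, a gene of dividing cells. The same cell had 165 UMIs of Elane, the neutrophil elastase gene, and 0 of Mpo, the myeloperoxidase gene. Its neutrophil markers made up 2.10% of its UMIs. The next, on a PBS-primed PB plate of batch 6, had 202 UMIs with 482 of Fn1, 334 of Ccr2 and 386 of Ms4a6c, and a cell on the other plate had 97 with 339 of Ms4a6c and 218 of Fn1. Monocyte markers were 0.639%, 1.10% and 0.713% of the UMIs of these 3 cells, against plate medians of 0.00427% to 0.0196% in PBS-primed PB and 0.0642% to 0.0839% in LPS-primed BM. The other 4 cells had 48, 47, 37 and 20 UMIs, with neutrophil markers at 20.9%, 26.5%, 45.1% and 19.6% and monocyte markers at 0.00202% to 0.125% of their UMIs. Of these 4, the cell with 47 UMIs had 122 monocyte and macrophage marker UMIs, 116 of them of the macrophage gene Adgre1, or 0.125% of its UMIs against a plate median of 0.00988%.

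Low counts were most frequent on the plates with the highest cells. Cells with 1 or 2 UMIs numbered 22 of 88 on the PBS-primed PB plate whose highest cell had 202, and 14 of 91 on the LPS-primed BM plate whose highest cell had 352. Over all plates, 42 cells had 1 UMI and 6 had 2. Whether these come from the cells themselves was not tested.

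**Figure D4:**
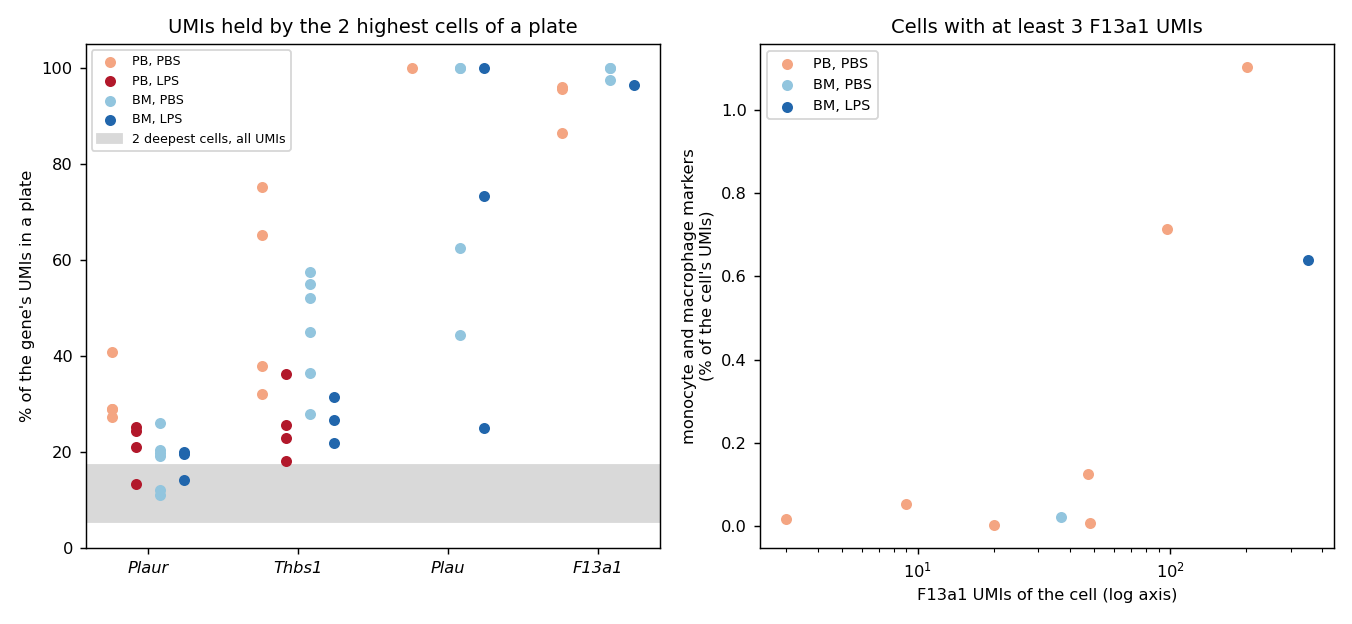
Left, share of a gene's UMIs held by its 2 highest cells on each plate with a UMI, in percent and by group, beside a grey band for the share of all UMIs in the 2 deepest cells (5.34% to 17.4%). Right, F13a1 UMIs (log axis) against the share of monocyte and macrophage marker UMIs in percent for the 9 cells with at least 3 F13a1 UMIs; 3 cells lie above 0.6% and the rest below 0.2%.

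The 4 genes were set among 60 measured genes in 7 lists of the pathway, 48 of which passed the filter on low counts. With LPS in PB and TMM scaling, 6 of the 48 rose and 0 fell, where 3.47% of all genes passed as higher and 0.472% as lower. On library size alone 2 rose (Thbs1 and Fpr2) and 3 fell (Sirpa, Itga4 and Itgav), where 140 of all 8478 genes rose and 268 fell. In batch 6, where 41 were tested, 5 rose and 4 fell (S100a10, Itgb3, Sirpa and Itga4). Of all 9113 genes tested there, 418 rose and 208 fell. With LPS in BM 0 rose and 0 fell in these 3 fits. In the difference of the LPS effects, 3 were higher in PB with TMM scaling (Plaur, Thbs1 and Fpr2), where 1.45% of all genes were. On library size alone this was 1 (Thbs1), and in batch 6 it was 2 (Thbs1 and Cd47), with Sirpa lower. Of all genes, 45 were higher and 19 lower on library size alone, and 148 were higher and 49 lower in batch 6. Besides Plaur and Thbs1, the genes that rose in PB with TMM scaling were Cd47, Fpr1, Fpr2 and Itgam, all of them surface receptors. In the same fit resting PB was lower than resting BM in 4 genes (Plaur, Thbs1, Itgam and Fpr2) and higher in Fgb. LPS-primed PB was higher than LPS-primed BM in Thbs1, Vtn, Fgb and Fgg. Of all genes, 1.43% passed as lower and 1.18% as higher in PB at rest, and 3.27% as higher after LPS.

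Among plasminogen activators and receptors, Plaur was the 1 of 10 tested genes that passed with LPS in PB, where 3.94% of all genes passed. The list's fitted median of -0.20 lay near that of all genes (-0.11). With genes at 0 set to the floor and on the scale of CPM, the median was -1.03 for this list, -0.10 for the inhibitors, -1.01 for the coagulation factors, -0.69 for the anticoagulants, -1.41 for thrombospondins and their receptors and -0.38 for the integrin partners, against -0.97 for all genes. Anxa2, a plasminogen-binding annexin named here for its level, had 1312 to 1986 CPM on the 17 plates and did not pass (adjusted p = 0.0829). Of the inhibitors 0 of 4 passed, of the anticoagulants 0 of 6 and of the coagulation factors 0 of 12. F5, which encodes factor V, was the factor with the highest summed level, at 120 and 79.3 CPM in PBS-primed and 44.8 and 80.7 CPM in LPS-primed PB (adjusted p = 0.883). Entpd1, the ectonucleotidase CD39, led the anticoagulants at 195 and 222 CPM in PBS-primed and 156 and 160 CPM in LPS-primed PB (adjusted p = 0.685). Thbd, the thrombomodulin gene, was named after its values were seen. It had 95.2 and 19.4 CPM in PBS-primed and 0.78 and 1.02 CPM in LPS-primed PB samples (adjusted p = 0.294). In batch 6 it had 10.7 and 55.2 against 0 and 0.54 CPM. Serpinb6a led the inhibitors at 2.78 to 18.0 CPM in the PB samples. The 1 thrombin receptor tested, F2rl2, did not pass (adjusted p = 0.58).

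Thbs1 and Cd47 were the 2 of 8 thrombospondin and receptor genes that passed with LPS in PB, where 3.94% of all genes passed. Cd47, whose product binds thrombospondin-1, had 391 and 380 CPM in PBS-primed and 985 and 1011 CPM in LPS-primed PB samples, and 303 to 346 against 1326 to 1551 CPM in batch 6. Its log2 fold change was 2.29 (SE 0.44, adjusted p = 0.015), or 3.24 in batch 6 (adjusted p = 8.89e-09) and 1.37 on library size alone (adjusted p = 0.0977). Sirpa, the CD47 receptor of myeloid cells, was named after its values were seen. It had 503 and 556 CPM in PBS-primed and 137 and 149.9 CPM in LPS-primed PB samples, and 516 and 469 against 25.96 and 57.5 CPM in batch 6. Its log2 fold change was -0.97 (SE 0.33, adjusted p = 0.164), but -1.89 on library size alone (adjusted p = 0.0105) and -2.50 in batch 6 (adjusted p = 0.000501).

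Among the partners of uPAR, the formyl peptide receptor genes Fpr1 and Fpr2 and the integrin gene Itgam passed with LPS in PB, 3 of 7 tested, where 3.94% of all genes passed. Fpr2 had 210 and 441 CPM in PBS-primed and 1210 and 1404 CPM in LPS-primed PB, with a log2 fold change of 2.93 (SE 0.33, adjusted p = 0.000452), and its LPS effect was larger in PB than in BM by 2.25 (SE 0.44, adjusted p = 0.0303). That difference did not pass on library size alone (1.13, adjusted p = 0.226) or in batch 6 (1.71, adjusted p = 0.194). Fpr1 had 252 and 483 against 859 and 834 CPM, with 2.12 (SE 0.33, adjusted p = 0.00392). On library size alone the PB effect of Fpr2 passed and that of Fpr1 did not (adjusted p = 0.00624 and 0.0616). Itgam, the alpha chain of Mac-1, overlapped in CPM, at 492 and 360 against 453 and 649. Its log2 fold change of 1.29 (SE 0.28, adjusted p = 0.0297) was 0.36 on library size alone (adjusted p = 0.438). Itgb2, the beta chain, turned from 0.48 with TMM to -0.44 on library size alone and passed in neither. Itga4, an integrin alpha chain named after its values were seen, had 201 and 247 CPM in PBS-primed and 23.4 and 23.1 CPM in LPS-primed PB samples. Its log2 fold change was -2.35 (SE 0.63, adjusted p = 0.0704), but -3.27 on library size alone (adjusted p = 0.0113) and -3.20 in batch 6 (adjusted p = 0.0185).

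With TMM scaling in batch 7, the pathway genes other than Thbs1 that were higher in PB than in BM encode plasma proteins that the liver is known to make. S100a10 and Itga4 were also higher in resting PB than in resting BM on library size alone (adjusted p = 0.0483 and 0.0131) and in batch 6 (adjusted p = 0.00275 and 0.0216), and in batch 6 Tgm2 and Cd47 were higher in PB after LPS (adjusted p = 0.0432 and 0.0321). Fgb, a fibrinogen chain, had 52.6 and 152 CPM in PBS-primed and 32.2 and 36.9 CPM in LPS-primed PB samples of batch 7, and 0 in the 4 BM samples (adjusted p = 0.0111 after PBS and 0.00885 after LPS). In batch 6 it was at 0 on each of the 4 PB plates. After LPS, Fgg had 37.6 and 41.3 CPM in PB against 0.13 and 0 CPM in BM (adjusted p = 0.024), and Vtn, which encodes vitronectin, had 16.1 and 27.9 CPM against 0 (adjusted p = 0.0446). Of 20 genes whose products the liver secretes into plasma, 17 were higher in all 4 PB samples than in all 4 BM samples in batch 7, and 1 in batch 6. The set was put together after values were seen, and the share of all genes that separated in this way was not counted. The sums of the 20 genes were 180 to 618 CPM in PB of batch 7, 1.67 to 16.1 CPM in BM of batch 7 and 1.10 to 38.4 CPM over the plates of batch 6. Hepatocyte markers were also higher in PB than in BM of batch 7, at 873 to 2338 CPM against 1.79 to 15.9 CPM. In batch 6 they were at 0.107 to 1.91 CPM in PB and at 0 to 94.7 CPM in BM, and their part was not tested.

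**Figure D5:**
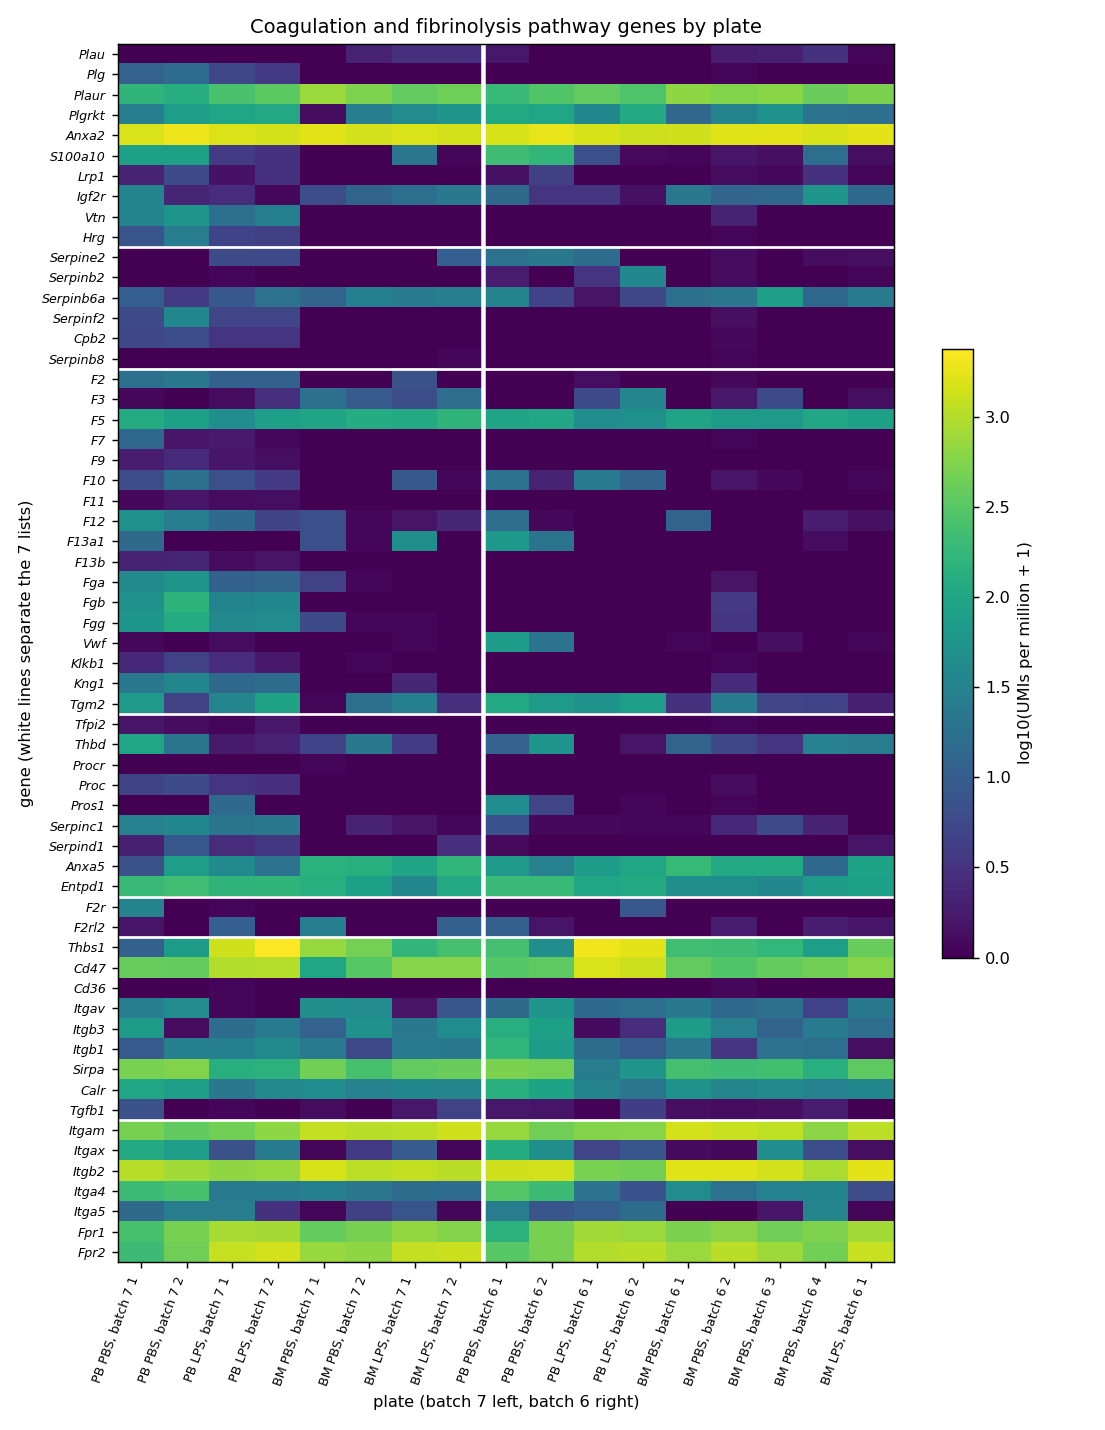
Level of the 60 measured pathway genes on each plate, as log10(CPM + 1) on the colour scale, with batch 7 samples left and batch 6 plates right of the vertical white line and horizontal white lines between the 7 lists. Anxa2 stands at 1312 to 1986 CPM throughout, Thbs1 and Cd47 are brightest in LPS-primed PB, and Fgb, Fgg and Vtn are seen in PB of batch 7 but are at 0 in PB of batch 6.

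The genes whose levels ran closest to the 4 were found by Pearson's r of log2(CPM + 1) over the 8 samples, as a description. For Plaur these were Atp6v1h, Dcaf13 and Mgst1 (r = 0.98, 0.98 and 0.97 among 5416 genes), of which Mgst1 alone stayed close over the 9 batch 6 plates (r = 0.96, against 0.45 and -0.42). Mgst1, a microsomal glutathione transferase, had in PB 522 and 548 CPM after PBS and 870.0 and 869.6 CPM after LPS, and in BM 1484 and 1097 CPM after PBS and 1002 and 1065 CPM after LPS, the same order of groups as Plaur but for the closer BM groups. For Thbs1 they were Sla, Xkr8 and Cyfip1 (r = 0.94, 0.94 and 0.93), with 0.89, 0.14 and 0.77 over batch 6. Sla, an adaptor that dampens receptor signalling, had 374 and 392 CPM in LPS-primed PB and 80.5 to 189 CPM in the other samples. For Plau and F13a1, which rest on few cells, the closest genes (Milr1, Snx27 and Maea, and Ncln, Irf2bp1 and Emc7) had r of 0.94 to 0.96 and 0.91 to 0.92, but 0.28 to 0.56 and -0.26 to -0.01 over batch 6.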

How the data were processed

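Neutrophils of PB and BM were profiled by SCRB-seq. The authors trimmed reads with Cutadapt 1.15, aligned them to mm9 with STAR 2.6.0a, removed duplicates by UMI, counted genes per barcode with HTSeq 0.11.2 and filtered cells by genes, UMIs and spike-ins. The deposited values are UMI counts, not normalized, and the gene annotation behind them is not given in the sources used here. The deposited cell annotation gave batch, plate and cluster, and the deposited barcode list was not used. Columns of batch 7 cells were matched to the 8 samples by name. Batch 6 cells carry a group only, and their plates entered no main test. No doublets were called, since cells were picked singly.

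Genes with a UMI in at least 10 cells (9919) were kept, summed per sample and tested with edgeR 4.0.16 (filterByExpr, TMM, glmQLFit, glmQLFTest, two-sided) in R 4.3.3. The common dispersion was 1.06, and the script was tested on simulated data. The SE is the log2 fold change divided by the root of the F statistic. Shares of cells have exact Clopper-Pearson intervals at 95%, also after thinning to 5000 UMIs per cell, and like the floor of 3 UMIs they cover counting error only. Samples with the same number did not deviate together (r = -0.027 to 0.005), and the main fit did not pair them. With 2 samples a group this cannot show whether they came from the same mice. Fitted fold changes of Plau and F13a1, with groups at 0, are not printed.

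The 4 genes, the lists and the tests were chosen with earlier results of these data known. The named genes are the 4 members, for each list up to 4 genes that passed or else the one with the highest sum, and for each member the 3 genes with the highest r among those with a mean of at least 10 CPM. Alternatives were library size alone, DESeq2 1.42.0, limma 3.58.1, no filter, each sample left out, a replicate block, thinning, leaving out the 2 highest cells or cells with markers of another type, and both batches with a batch term. The plates of batch 6 alone and a marker share of 0.5% were added after seeing the data.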

Additional observations from a re-analysis of the deposited data

Results flagged for a closer look

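The LPS effect differed between compartments for 2 of the 4 genes, by an interaction term in the fit of the 8 samples. For Plaur the effect in PB exceeded that in BM by 2.80 on the log2 scale (SE 0.45, edgeR adjusted p = 0.00832), with the 2 LPS-primed samples above the 2 PBS-primed samples in PB and below them in BM. It did not pass in batch 6 (1.65), on library size alone (1.70, adjusted p = 0.109), without cells with markers of another type (2.39, adjusted p = 0.205) or without the LPS-primed BM sample 1 (2.68) or the PBS-primed PB sample 2 (2.601). For Thbs1 the excess was 8.30 (SE 1.01, edgeR adjusted p = 0.00151), with the same arrangement of samples, and in batch 6 it was 3.78 and passed. With 2 samples a group, single samples could not be tested for standing apart.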

How the results depend on the processing

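At this depth, a plate with 0 UMIs of Plau or F13a1 allows up to 3.16% to 6.67% of cells with a UMI, by a limit of 3 counts. With 2 samples a group each leave-one-out fit assumes that the lone sample varies like the others. Marker UMIs of another type, at least 10 from at least 2 genes, removed 268 of 711 cells, so the fit without these cells is on fewer cells. Hepatocyte markers were not among those used for this. The added share of 0.5% removed 12. For other changes the cause was not tested.

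For the LPS effect in PB, Plaur gave 1.03 on library size alone, 1.89 with limma-voom (adjusted p = 0.0538) and 1.49 without cells with markers of another type (adjusted p = 0.216), and Thbs1 gave 7.26 with limma-voom. In BM, Thbs1 turned to 1.16 in batch 6 alone. For resting PB against BM, Thbs1 gave -5.26 with limma-voom (adjusted p = 0.182) and -0.95 in batch 6. For LPS-primed PB against BM, Plaur turned to -0.42 on library size alone, -0.027 with thinned cells, -0.081 in batch 6 and -0.12 without LPS-primed PB sample 2, and Thbs1 gave 3.13 without cells with markers of another type (adjusted p = 0.0648). The difference of the effects for Plaur was 1.70 on library size alone (adjusted p = 0.109), 2.39 without cells with markers of another type (adjusted p = 0.205) and 1.65 in batch 6, and for Thbs1 8.98 with limma-voom (adjusted p = 0.111).

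For the sparse genes, adjusted p is given. Plau with LPS in BM turned in batch 6 (1). F13a1 with LPS in PB passed with both batches (0.0315). In BM it turned without cells with markers of another type (0.858), with the added share (1) and in batch 6 (1). For resting PB against BM it turned with the replicate block (0.937) and without cells with markers of another type (0.933). For LPS-primed PB against BM it passed with DESeq2 (0.0489), and its difference passed with both batches (0.037).

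Leaving out each sample gave for Plaur 1.65 to 2.16 (PB), -1.04 to -0.61 (BM), -2.83 to -2.40 (resting), -0.12 to 0.39 (after LPS) and 2.51 to 3.02 (difference). For Thbs1 it gave 5.66 to 8.46, -2.04 to -1.45, -6.41 to -3.62, 3.30 to 4.19 and 7.42 to 10.2. The adjusted p of Plau was 0.665 to 1 in BM, 0.472 to 0.65 at rest and 0.349 to 0.647 after LPS, and that of F13a1 0.372 to 0.666 (PB), 0.866 to 1 (BM), 0.609 to 1 (resting), 0.297 to 0.547 (after LPS) and 0.516 to 1 (difference). The numbers of genes past the threshold were 146 to 400 (334 with all samples) for LPS in PB, 2 to 28 (6) in BM, 108 to 342 (221) at rest, 144 to 382 (316) after LPS and 80 to 168 (127) for the difference. At rest 342 came without LPS-primed PB sample 1. The low counts came without PBS-primed PB sample 1 (159, 115 and 84 for LPS in PB, at rest and the difference) or 2 (146 and 108 for the first pair), and without LPS-primed BM sample 1 (145 and 80 for after LPS and the difference) or 2 (144 and 80).

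Genes past the threshold for LPS in PB numbered 1047 with DESeq2, 87 without cells with markers of another type, 816 with both batches and 626 in batch 6. In BM there were 10 on library size alone, 191 with DESeq2, 10 with limma-voom, 15 without the filter, 13 with the replicate block, 27 thinned, 39 with both batches and 31 in batch 6. At rest there were 942 with DESeq2, 370 with limma-voom, 116 without cells with markers of another type, 709 with both batches and 464 in batch 6. After LPS there were 930, 536, 142 and 491 in the first 4 of these settings. For the difference there were 64 on library size alone, 487 with DESeq2, 33 without cells with markers of another type, 295 with both batches and 197 in batch 6. The share of calls that were higher was 88.0% with TMM and 34.3% on library size alone for LPS in PB, 45.2% and 71.7% at rest, 87.7% and 59.7% after LPS and 96.9% and 70.3% for the difference.

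Median shares of cells with a UMI were 89.2% for Plaur, 59.3% thinned and 81.5% for at least 2 UMIs, and 75.9%, 28.4% and 56.6% for Thbs1. The highest cell alone held 12.8% and the 5 highest 37.7% of Plaur UMIs, against 20.4% for 2, and for Thbs1 the 5 highest held 55.9% against 36.3%. With the replicate block, the 4 genes kept their side of the threshold, with Plaur at 1.96 and Thbs1 at 6.75 for LPS in PB, and the counts of genes were 374, 13, 255, 353 and 154.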
